A study of Mus musculus with 16 samples.

Results

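The genes described here are 9 members of the Wnt/beta-catenin response: the DNA-binding factors Lef1, Tcf7, Tcf7l1 and Tcf7l2, the feedback antagonists Axin2, Nkd1 and Apcdd1, and the transcription factor targets Sp5 and Cdx1. They were found through the RefSeq accession that the array files give for each probe. The 9 genes stand among 20972 named genes and have 15 of 55681 probes. All 9 passed the filter on dim probes, as did 13 of their 15 probes and 15517 of all genes. The probe of highest mean level stood for each gene, and each of these 9 probes was well above background on all 16 arrays.

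RNA of 16 pluripotent stem cell lines of 129/Ola mice was measured on single-colour Agilent arrays, 1 line on each array and 4 lines in each group. The 2iSB mESCs (passages 17 to 24) came from pre-implantation embryos and were kept in LIF, the 2 inhibitors called 2i, which block the kinases MEK and GSK3, and SB431542, which blocks type I receptors of the Activin, Nodal and TGF-beta branch. The 2i mESCs (passages 22 to 24) had the same origin and were kept in 2i and LIF. The mEpiSCs (passages 24 to 28) were derived from post-implantation epiblast and kept in Activin A and bFGF. The LIF serum lines (passages 23 to 26) came from pre-implantation embryos and were kept in serum with LIF, with no GSK3 inhibitor. The labels call the 2iSB and 2i lines ground state, the mEpiSCs primed and the LIF serum lines naive.

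Wnt ligands act through Frizzled and LRP receptors to halt the destruction complex, in which GSK3 marks beta-catenin for breakdown. Inhibiting GSK3 has the same first effect without a ligand: beta-catenin builds up, binds TCF/LEF factors on DNA and raises targets such as Axin2, Sp5, Cdx1 and Lef1 itself. In mouse embryonic stem cells Tcf7l1 (Tcf3) mainly represses its targets, naive pluripotency genes among them, and beta-catenin relieves that repression.

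Promoter windows of Sp5, Lef1, Axin2 and Nkd1 are shown first, to let the TCF/LEF binding letters be seen in place. Those of Lef1, Axin2 and Nkd1 belong to starts inside the gene. Each run is 1 RefSeq window of GRCm38.p6, 250 bases before the transcription start to 50 after it, on the gene's own strand. Capitals mark the 4 cores searched on either strand. These are CTTTGAA, its close relative CTTTGAT, the variant with a T and an A at the end, CTTTGTA, and the variant that ends in a pair of T, CTTTGTT.
Sp5, chr2:70474673-70474972, plus strand: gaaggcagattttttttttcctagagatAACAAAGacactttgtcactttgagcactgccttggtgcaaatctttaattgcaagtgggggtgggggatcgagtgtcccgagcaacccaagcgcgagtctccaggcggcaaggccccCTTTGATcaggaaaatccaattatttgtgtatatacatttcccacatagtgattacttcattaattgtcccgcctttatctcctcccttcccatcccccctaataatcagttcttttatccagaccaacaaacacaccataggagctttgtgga
Lef1, internal start, chr3:131156044-131156343, plus strand: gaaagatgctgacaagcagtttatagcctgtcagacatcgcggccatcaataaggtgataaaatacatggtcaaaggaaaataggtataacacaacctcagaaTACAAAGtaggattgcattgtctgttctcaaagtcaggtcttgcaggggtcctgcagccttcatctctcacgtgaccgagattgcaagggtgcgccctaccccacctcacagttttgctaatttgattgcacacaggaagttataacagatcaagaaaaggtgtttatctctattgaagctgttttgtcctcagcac
Axin2, chr11:108920099-108920398, plus strand: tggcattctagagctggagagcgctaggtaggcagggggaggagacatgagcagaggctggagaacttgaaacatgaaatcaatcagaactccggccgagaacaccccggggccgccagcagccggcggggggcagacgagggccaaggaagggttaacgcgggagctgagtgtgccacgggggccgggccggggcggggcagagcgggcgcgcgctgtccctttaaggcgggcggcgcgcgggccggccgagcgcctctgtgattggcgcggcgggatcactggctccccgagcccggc
Nkd1, chr8:88527383-88527682, plus strand: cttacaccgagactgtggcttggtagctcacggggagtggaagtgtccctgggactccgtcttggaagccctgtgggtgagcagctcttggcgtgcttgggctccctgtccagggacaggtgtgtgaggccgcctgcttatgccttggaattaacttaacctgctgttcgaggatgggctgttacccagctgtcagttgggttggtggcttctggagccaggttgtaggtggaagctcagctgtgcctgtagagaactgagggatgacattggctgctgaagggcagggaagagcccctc

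RefSeq windows, 12 in all, matched 7 of the 9 genes, all but Cdx1 and Apcdd1. A core was in 3 of the 12 windows, against 16.9% of all 32851 windows. Sp5 had 2 cores, 222 and 104 bases before the start, Lef1 had 1 in the last of its 4 windows, 147 bases before that internal start, and Tcf7l2 had 1 in 1 of its 2 windows. The windows of Axin2, Nkd1, Tcf7 and Tcf7l1 did not hold these letters. The only windows of Axin2 and Nkd1 lie inside the genes, which begin at 108917828 and 88521342, and the Tcf7 windows also lie inside the gene. Letters before the outermost start of these genes were therefore not searched. A match of letters is a description and not a measured binding site.

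Levels are log2 processed signals set against the 75th percentile of their own array, so a level can be compared between arrays for 1 probe but not between probes. Between 51.5% and 63.6% of probes were well above background on an array. Naive pluripotency markers, 10 genes summed, lay at 9.16 to 9.66 in 2iSB mESCs, 9.25 to 9.63 in 2i mESCs, 5.43 to 6.09 in mEpiSCs and 9.06 to 9.43 in LIF serum on the log2 scale. Of 6 primed epiblast markers, 2 were called higher in mEpiSCs than in LIF serum, Fgf5 by 5.41 (adjusted p = 0.00014) and Pou3f1 by 2.66 (adjusted p = 1.3e-06), and 4 were not called. The summed level of the 6 leans on Dnmt3b, whose probe is the brightest (6.13 to 6.61 in mEpiSCs and 6.38 to 7.20 in LIF serum). That sum was 7.02 to 7.44 in mEpiSCs and 6.72 to 7.62 in LIF serum. Fibroblast markers, 12 genes summed, were at 1.36 to 1.90 in 2iSB mESCs, 1.38 to 2.03 in 2i mESCs, 7.58 to 8.27 in mEpiSCs and 3.71 to 7.02 in LIF serum. In LIF serum these markers split by a code in the descriptions that the labels do not explain: replicates 1 and 2, coded LS, were at 7.02 and 6.66, and replicates 3 and 4, coded LSFF, at 3.71 and 3.81. In 2iSB and in 2i mESCs 5 of the 12 fibroblast markers were well above background on no array. Their part in the results below was not tested, and in such bulk samples fewer cells of a type and less RNA per cell cannot be told apart.

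**Figure D1:**
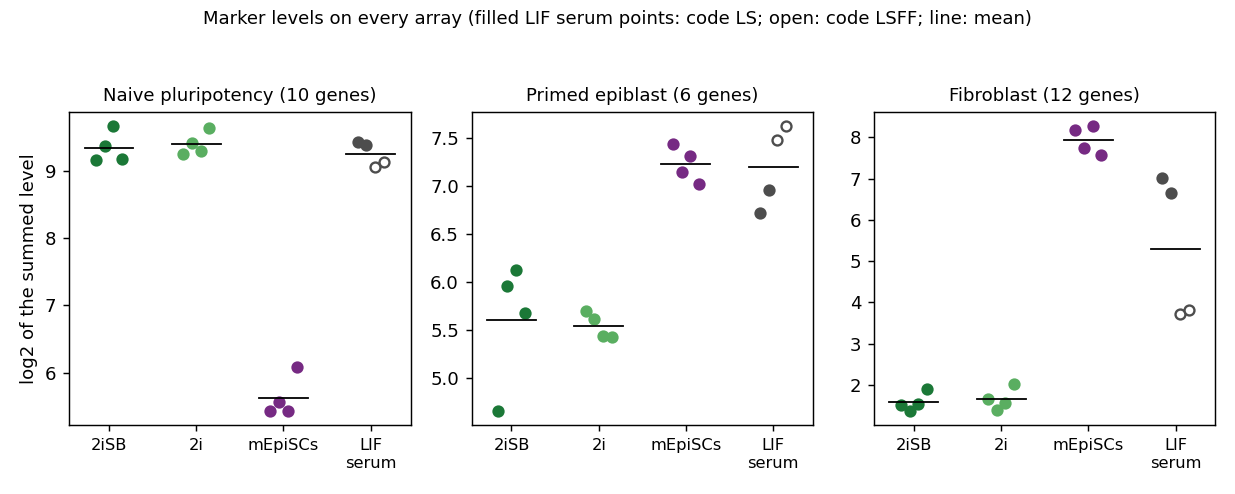
Log2 of the summed level of 10 naive pluripotency, 6 primed epiblast and 12 fibroblast markers on each of the 16 arrays, by culture group, with the group mean as a line. Fibroblast markers are lowest in 2iSB and 2i mESCs and highest in mEpiSCs, and the LIF serum arrays coded LS (filled) and LSFF (open) lie apart.

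The question for these genes is how a Wnt response read from RNA differs between lines kept with a GSK3 inhibitor and lines kept without one. The inhibitor lines also had a MEK inhibitor, and the LIF serum lines had serum. The mEpiSCs differ in embryonic origin and in Activin A and bFGF. An effect of the GSK3 inhibitor cannot be told apart from these in any comparison below. In both inhibitor groups the response genes were not raised together over LIF serum. Lef1 and Nkd1 were lower in 2iSB and in 2i mESCs, Cdx1 was lower in 2iSB mESCs, and Tcf7l1 was the 1 member that was higher, in 2iSB mESCs. Not all of these calls were stable over 22 alternative settings. In 2iSB mESCs the call was lost in 10 for Cdx1, 8 for Tcf7l1, 2 for Nkd1 and 0 for Lef1. In 2i mESCs it was lost in 6 for Lef1 and 1 for Nkd1. Axin2 and Sp5 passed the test in neither group. In mEpiSCs, Cdx1 and Axin2 were lower and Tcf7l1 and Apcdd1 higher than in LIF serum. Over 21 alternatives the call was lost in 3 for Axin2, 6 for Apcdd1 and 0 for Cdx1 and Tcf7l1.

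A gene was called when its adjusted p from the limma fit over all genes was under 0.05 and the difference was at least 2-fold. Of the 9 members, 4 were called in 2iSB mESCs against LIF serum (1 higher, 3 lower), where 20.1% of all genes were called. In 2i mESCs 2 were called, both lower, a share near the 18.3% of all genes. In mEpiSCs 4 were called (2 higher, 2 lower), against 33.6% of all genes. The median member difference was −0.74 in 2iSB mESCs, −0.52 in 2i mESCs and 0.04 in mEpiSCs, against 0.02, 0.02 and 0.07 over all genes. Groups did not overlap for 4 members in 2iSB mESCs (29.7% of all genes), 2 in 2i mESCs (27.3%) and 3 in mEpiSCs (58.8%), each against LIF serum. These 3 comparisons share the LIF serum arrays and so are not independent of each other. Each array is another line, so p-values measure the spread between lines, slides and codes together.

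**Figure D2:**
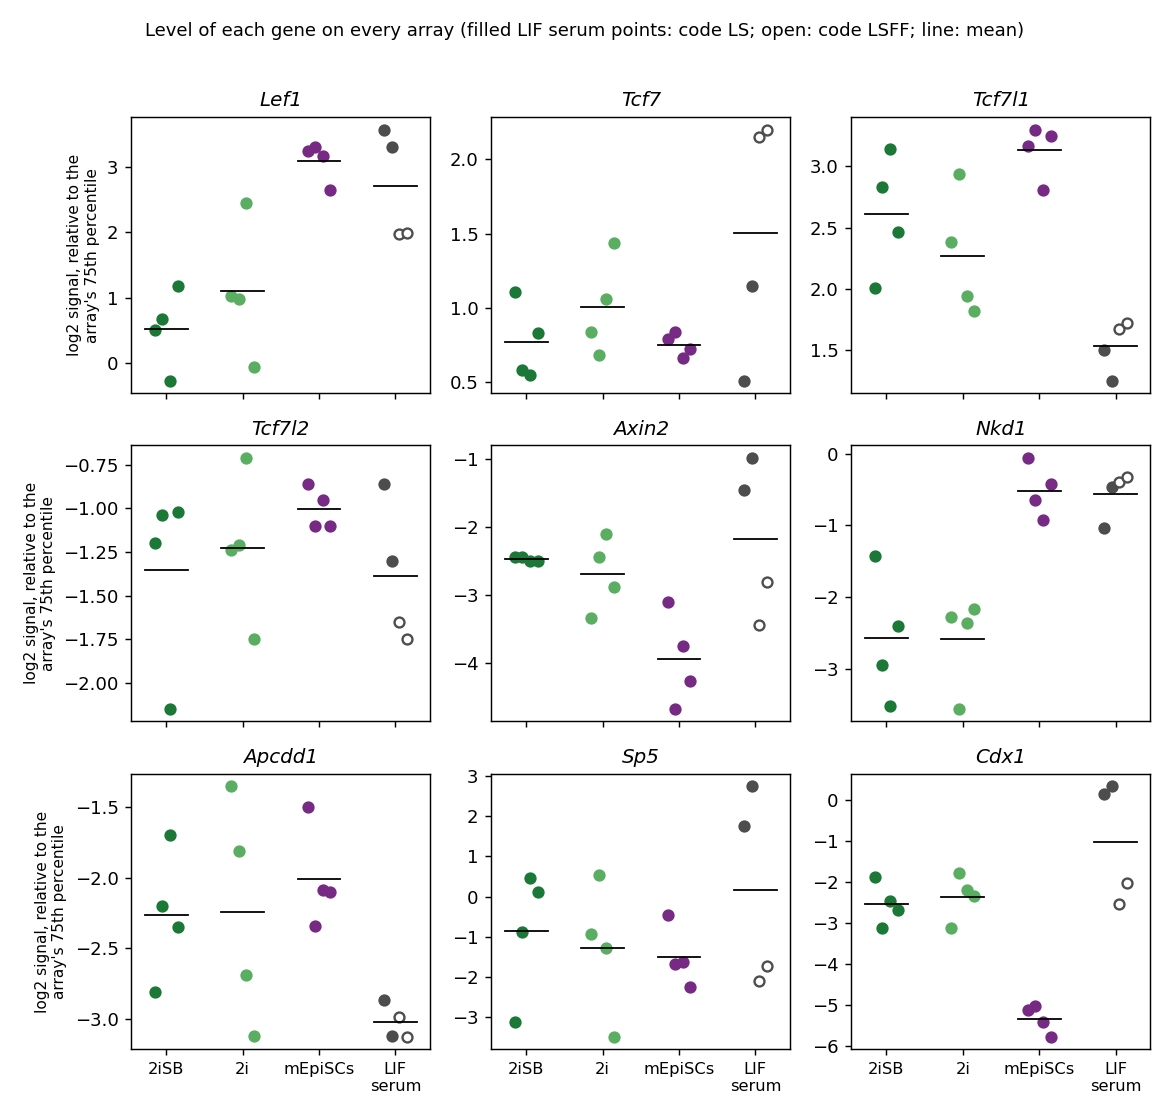
Level of each of the 9 genes on all 16 arrays (log2, with 0 at the 75th percentile of that array, each panel on its own scale), by culture group, with the group mean as a line. Lef1 and Nkd1 are low in 2iSB and 2i mESCs, Cdx1 is lowest in mEpiSCs, and in LIF serum the LS (filled) and LSFF (open) arrays lie apart for Axin2, Lef1, Sp5, Cdx1 and Tcf7.

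Lef1, the TCF family member that is itself a Wnt target, was at 0.51, 0.67, −0.27 and 1.18 in 2iSB mESCs, at 1.03, 0.98, 2.45 and −0.07 in 2i mESCs, at 3.25, 3.30, 3.17 and 2.64 in mEpiSCs and at 3.57, 3.30, 1.98 and 1.99 in LIF serum. All 2iSB arrays lay below all LIF serum arrays, while 2i replicate 3 lay within the LIF serum range. The log2 difference from LIF serum was −2.19 (SE 0.49, adjusted p = 0.0034, 4.55-fold lower) in 2iSB mESCs. In 2i mESCs it was −1.61 (SE 0.49, adjusted p = 0.022, 3.05-fold lower). From the highest mean to the lowest the order was mEpiSCs, LIF serum, 2i and 2iSB mESCs, and neither the upper pair (mEpiSCs over LIF serum 0.38, adjusted p = 0.53) nor the lower pair was called apart. A second Lef1 probe moved the same way, by −1.93 in 2iSB mESCs (adjusted p = 0.0091) and −1.28 in 2i mESCs (adjusted p = 0.068). The 2i call was lost without LIF serum replicate 1 or 2 or 2i replicate 2 or 4, with differences of −1.57 to −1.22 and adjusted p of 0.051 to 0.065. It was also lost against the LSFF lines alone (−0.89, adjusted p = 0.21) and with only the 2i and LIF serum arrays in the fit (adjusted p = 0.081). The 2iSB call was kept against the LSFF lines (−1.46, adjusted p = 0.049).

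Tcf7l1, the repressive TCF of embryonic stem cells, was at 2.01, 2.83, 3.14 and 2.46 in 2iSB mESCs, at 2.38, 2.94, 1.94 and 1.82 in 2i mESCs, at 3.17, 3.30, 2.81 and 3.25 in mEpiSCs and at 1.50, 1.25, 1.67 and 1.72 in LIF serum. Every array of the other 3 groups lay above every LIF serum array. The difference from LIF serum was 1.07 (SE 0.26, adjusted p = 0.0061) in 2iSB mESCs and 1.60 (SE 0.26, adjusted p = 0.00013, 3.03-fold) in mEpiSCs. In 2i mESCs it was 0.73 (SE 0.26, adjusted p = 0.047), under the 2-fold limit. The 2iSB value lies at that limit as well: without LIF serum replicate 2 or 2iSB replicate 2 or 3 it was 0.90 to 1.0 with adjusted p of 0.020 to 0.022. Against the LSFF lines alone it was 0.92 (adjusted p = 0.047), also under 2-fold, and with passage as a covariate 0.91 (adjusted p = 0.094). It was 0.96 with normexp background correction and 0.98 from the authors' deposited values, both under 2-fold. In order of means, mEpiSCs came first, then 2iSB and 2i mESCs, then LIF serum, and of the neighbours 2i mESCs differed from LIF serum by less than 2-fold and the others were not called apart. With arrays centred on their medians, 2iSB mESCs were called lower than mEpiSCs (−1.04, adjusted p = 0.020).

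Tcf7 (Tcf1), which activates Wnt targets, was at 0.55 to 1.11 in 2iSB mESCs, 0.68 to 1.44 in 2i mESCs, 0.66 to 0.84 in mEpiSCs and 0.51 to 2.20 in LIF serum, where the LSFF arrays (2.15 and 2.20) were the highest of all and the LS arrays (0.51 and 1.15) were not. Its difference from all LIF serum arrays was −0.74 in 2iSB mESCs (adjusted p = 0.082), −0.50 in 2i mESCs (adjusted p = 0.24) and −0.75 in mEpiSCs (adjusted p = 0.055), none of them called. Against the LSFF lines alone it was called in each group, at −1.41 in 2iSB mESCs (adjusted p = 0.00036), −1.17 in 2i mESCs (adjusted p = 0.0013) and −1.42 in mEpiSCs (adjusted p = 0.00014). The values against the LS lines alone were −0.06, 0.17 and −0.08. Without LIF serum replicate 1 it was −1.07 in 2iSB mESCs (adjusted p = 0.0059) and −1.08 in mEpiSCs (adjusted p = 0.0029), and both were then called. The second Tcf7 probe had differences of −0.75, −0.58 and −0.59 in these groups and was not called.

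Tcf7l2 (Tcf4) was called in no comparison on its brightest probe, with means of −1.35 ± 0.54 in 2iSB mESCs, −1.23 ± 0.42 in 2i mESCs, −1.0 ± 0.12 in mEpiSCs and −1.39 ± 0.40 in LIF serum (SD, n = 4 each). Its 2 other probes, which the files assign to other RefSeq accessions of the gene, were higher in mEpiSCs than in LIF serum by 1.38 (SE 0.33, adjusted p = 0.0029) and 1.31 (SE 0.33, adjusted p = 0.0038), and the brightest probe by 0.39 (SE 0.27, adjusted p = 0.24). In 2i mESCs against mEpiSCs those 2 probes were at −1.28 (adjusted p = 0.0046) and −1.32 (adjusted p = 0.0035). The probes of this gene therefore disagree on whether a difference passes, and all 3 run in the same direction.

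Axin2, a scaffold of the destruction complex and the standard read-out of Wnt feedback, was at −2.44, −2.45, −2.50 and −2.50 in 2iSB mESCs, at −3.34, −2.44, −2.11 and −2.89 in 2i mESCs, at −3.10, −4.67, −3.75 and −4.27 in mEpiSCs and at −1.46, −0.99, −3.44 and −2.81 in LIF serum. The 2iSB arrays lay within 0.06 of each other and between the LIF serum pairs: below both LS arrays and above both LSFF arrays. The difference from LIF serum was −0.30 (95% interval −1.30 to 0.71, adjusted p = 0.67) in 2iSB mESCs and −0.52 (−1.52 to 0.49, adjusted p = 0.44) in 2i mESCs. Against the LS lines alone it was −1.25 (adjusted p = 0.037) in 2iSB and −1.47 (adjusted p = 0.020) in 2i mESCs, and against the LSFF lines alone 0.66 (adjusted p = 0.22) and 0.44 (adjusted p = 0.42). In mEpiSCs Axin2 was 3.42-fold lower than in LIF serum (−1.77, SE 0.47, adjusted p = 0.0053), a call that was lost against the LSFF lines alone (−0.82, adjusted p = 0.11). A second Axin2 probe was too dim to test: it was well above background on 1 2iSB, 0 2i, 0 mEpiSC and 2 LIF serum arrays.

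Nkd1, an intracellular inhibitor of Dishevelled, was at −1.43, −2.95, −3.52 and −2.40 in 2iSB mESCs, at −2.28, −3.56, −2.36 and −2.17 in 2i mESCs, at −0.06, −0.65, −0.93 and −0.43 in mEpiSCs and at −1.04, −0.47, −0.39 and −0.33 in LIF serum. Every array of both inhibitor groups lay below every mEpiSC and LIF serum array. The difference from LIF serum was −2.02 (SE 0.40, adjusted p = 0.0015, 4.05-fold lower) in 2iSB mESCs and −2.03 (SE 0.40, adjusted p = 0.0016, 4.09-fold lower) in 2i mESCs. Against the LS lines alone it was −1.82 (adjusted p = 0.023) and −1.84 (adjusted p = 0.025), and against the LSFF lines alone −2.21 and −2.23 (adjusted p = 0.0048 each). In mEpiSCs Nkd1 was at the LIF serum level (0.04, 95% interval −0.81 to 0.89, adjusted p = 0.94). With passage as a covariate the 2iSB difference was −1.39 (adjusted p = 0.061) and was not called. The second Nkd1 probe was too dim to test.

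Apcdd1, a membrane protein that inhibits Wnt signalling, was at −2.81 to −1.70 in 2iSB mESCs, −3.12 to −1.35 in 2i mESCs, −2.34 to −1.50 in mEpiSCs and −3.13 to −2.87 in LIF serum. The LIF serum arrays were close together at the bottom, and all 2iSB and mEpiSC arrays lay above them. The difference from LIF serum was 0.76 (SE 0.33, adjusted p = 0.093) in 2iSB mESCs, 0.79 (SE 0.33, adjusted p = 0.090) in 2i mESCs and 1.02 (SE 0.33, adjusted p = 0.018, 2.03-fold) in mEpiSCs. The mEpiSC call lay at the 2-fold limit: without mEpiSC replicate 1 the difference was 0.85 (adjusted p = 0.062), and without LIF serum replicate 2 or 4 it was 0.99 and 0.98. Against the LS lines alone it was 0.99 (adjusted p = 0.077) and against the LSFF lines alone 1.05 (adjusted p = 0.062). Without 2i replicate 4 the 2i difference was 1.08 (adjusted p = 0.019) and was called.

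Sp5, a zinc-finger factor and direct Wnt target whose promoter run above holds 2 cores, was at −3.12, −0.88, 0.46 and 0.11 in 2iSB mESCs, at −0.93, 0.54, −1.27 and −3.49 in 2i mESCs, at −0.46, −1.68, −1.62 and −2.25 in mEpiSCs and at 1.76, 2.75, −2.09 and −1.72 in LIF serum. The LS arrays were the highest of all 16, and the LSFF arrays were among the low ones. The inhibitor arrays spread from 0.54 down to −3.49 (2i replicate 4) and −3.12 (2iSB replicate 1), the lowest of all 16. The standard error was 1.11, the largest of the 9 genes, and no comparison was called. The difference from LIF serum was −1.03 (95% interval −3.40 to 1.34) in 2iSB mESCs, −1.46 (−3.83 to 0.91) in 2i mESCs and −1.68 (−4.05 to 0.69) in mEpiSCs. Against the LS lines alone it was −3.11 (adjusted p = 0.050) in 2iSB mESCs, −3.54 (adjusted p = 0.032) in 2i mESCs and −3.76 (adjusted p = 0.010) in mEpiSCs, and against the LSFF lines alone 1.05, 0.62 and 0.40, none called and each of the opposite sign. In 2iSB mESCs the difference was −3.55 (adjusted p = 0.048) within slide 1 and 2.37 (adjusted p = 0.021) within slide 2, where the 1 2iSB array is assumed to vary like the others.

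Cdx1, a homeobox target of Wnt in the early embryo, was at −1.88, −3.11, −2.45 and −2.67 in 2iSB mESCs, at −3.12, −1.78, −2.20 and −2.34 in 2i mESCs, at −5.12, −5.02, −5.41 and −5.77 in mEpiSCs and at 0.15, 0.34, −2.53 and −2.02 in LIF serum. All mEpiSC arrays lay far below all others, and both inhibitor groups lay below the LS arrays and around the LSFF arrays. In mEpiSCs Cdx1 was 19.9-fold lower than in LIF serum (−4.31, SE 0.55, adjusted p = 1.3e-05), the largest member difference in any comparison. Those arrays lay near their lowest signal well above background (−6.17 to −5.54), and the difference was −2.41 (adjusted p = 0.00029) with normexp background correction and −3.22 (adjusted p = 0.00011) from the authors' deposited values. It was lower against the LS lines alone (−5.57) and against the LSFF lines alone (−3.05, adjusted p = 2.7e-05). In 2iSB mESCs the difference was −1.51 (SE 0.55, adjusted p = 0.046), and in 2i mESCs −1.34 (SE 0.55, adjusted p = 0.079). The 2iSB call was lost without LIF serum replicate 1 or 2 or 2iSB replicate 2, 3 or 4 (−1.53 to −1.06, adjusted p of 0.076 to 0.14), and against the LSFF lines the value was −0.25 (adjusted p = 0.63). Without LIF serum replicate 3 or 4 the 2i difference was called, at −1.84 (adjusted p = 0.016) and −1.68 (adjusted p = 0.045).

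**Figure D3:**
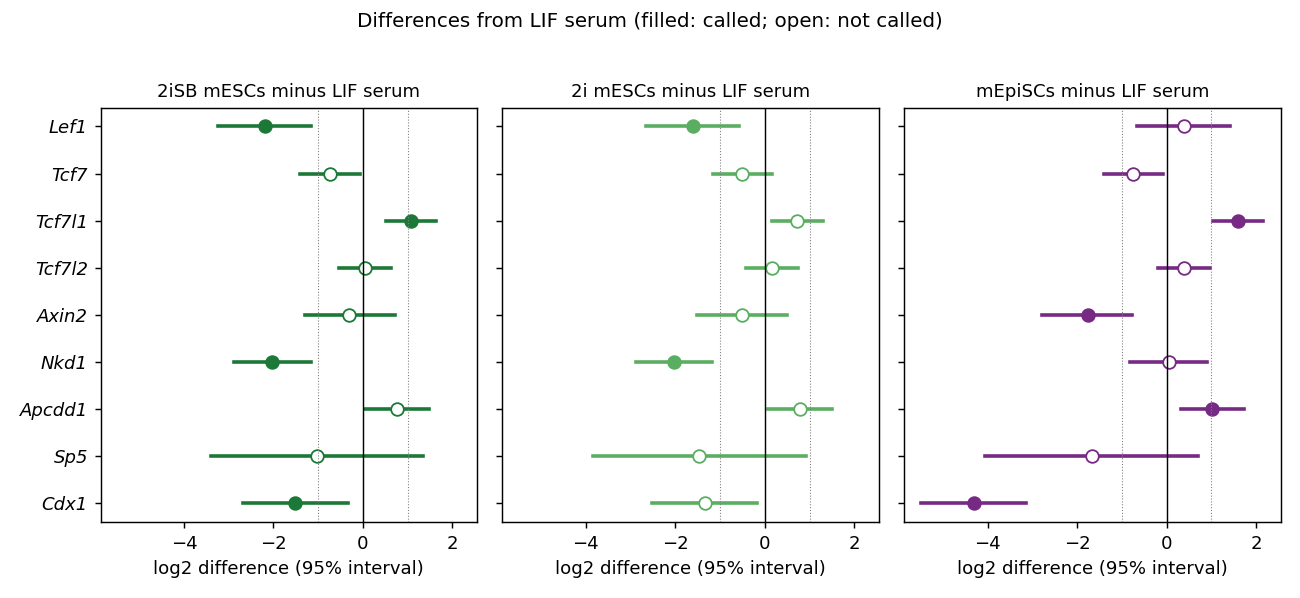
Log2 difference from LIF serum with its 95% interval for the 9 genes in 2iSB mESCs, 2i mESCs and mEpiSCs, dotted lines at a 2-fold difference. Filled points were called: 4 genes in 2iSB mESCs, 2 in 2i mESCs and 4 in mEpiSCs.

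Adding SB431542 to 2i and LIF moved none of the 9 genes past the test. In 2iSB against 2i mESCs 0 members were called, where 0.0838% of all genes (13 of 15517) were called (0.0129% higher, 0.0709% lower). No member had an interval that left out 0, and 0 members had groups that did not overlap, against 2.13% of all genes. The differences ran from −0.58 for Lef1 (95% interval −1.62 to 0.47) to 0.43 for Sp5 (−1.94 to 2.80). The interval was within 2-fold on both sides for Tcf7 (−0.90 to 0.43), Tcf7l1 (−0.22 to 0.90), Tcf7l2 (−0.71 to 0.46), Nkd1 (−0.84 to 0.87) and Apcdd1 (−0.74 to 0.69). For Lef1, Axin2 (−0.78 to 1.22), Sp5 and Cdx1 (−1.34 to 1.0) a 2-fold difference is within the interval.

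Against mEpiSCs the inhibitor groups divided the members. Cdx1 was higher in 2iSB mESCs by 2.80 (SE 0.55, adjusted p = 0.00051, 6.98-fold) and in 2i mESCs by 2.97 (adjusted p = 0.00031, 7.84-fold). Lef1 was lower by 2.57 on the log2 scale in 2iSB mESCs (a difference of −2.57, SE 0.49, adjusted p = 4e-04) and stood at −1.99 (adjusted p = 0.0029) in 2i mESCs. Nkd1 stood at −2.06 (adjusted p = 0.00047) in 2iSB and −2.07 (adjusted p = 0.00044) in 2i mESCs. With normexp the Cdx1 values were 1.17 (adjusted p = 0.035) and 1.23 (adjusted p = 0.026), and from the authors' deposited values 1.78 and 1.87. With slide as a block Lef1 in 2i mESCs was at −3.01. The calls of these 3 genes held without any single array and under every other setting tried. Axin2 was called higher, by 1.48 (adjusted p = 0.015) in 2iSB and 1.26 (adjusted p = 0.033) in 2i mESCs. That made 4 members called in each comparison, 2 higher and 2 lower. Of all genes 36.3% were called for 2iSB mESCs (16.2% higher, 20.1% lower) and 37.4% for 2i mESCs (16.8% higher, 20.6% lower). Groups did not overlap for 4 members in 2iSB mESCs (54.2% of all genes) and for 3 in 2i mESCs (55.2%). Without mEpiSC replicate 2 the Axin2 values were 1.24 (adjusted p = 0.053) and 1.02 (adjusted p = 0.10), and the 2i call was also lost without mEpiSC replicate 4 or 2i replicate 2 or 3 (1.06 to 1.17). Tcf7l1 stood at −0.87 (adjusted p = 0.011, under 2-fold) in 2i mESCs, and −1.09 without 2i replicate 2, which was called.

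Comparisons with mEpiSCs depend on the scaling. With each array centred on its median in place of its 75th percentile, the median difference of all genes between mEpiSCs and LIF serum was 0.61 in place of 0.07, and of the genes called 75.9% were higher in place of 53.5%. Relative to these medians the members kept their directions where called: Cdx1 stood at −3.78, Axin2 at −1.24, Tcf7l1 at 2.14 and Apcdd1 at 1.56, all called. Against mEpiSCs, Axin2 was not called under that scaling, at 0.96 (adjusted p = 0.064) in 2iSB and 0.72 (adjusted p = 0.15) in 2i mESCs. Tcf7l1 was then called lower, at −1.04 (adjusted p = 0.020) in 2iSB and −1.41 (adjusted p = 0.0030) in 2i mESCs.

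The LIF serum lines spread more than any other group for Axin2, Tcf7, Sp5 and Cdx1, and less than any other for Tcf7l1, Nkd1 and Apcdd1. Between the LSFF and the LS arrays 8 of the 9 members did not overlap, against 76.4% of all genes, which is 2 arrays against 2 and was not tested. Of these, 5 were lower in LSFF, with mean differences of −4.16 for Sp5, −2.52 for Cdx1, −1.90 for Axin2, −1.45 for Lef1 and −0.62 for Tcf7l2. Tcf7 was higher in LSFF by 1.35, Nkd1 by 0.39 and Tcf7l1 by 0.32. The median size of the difference was 1.35 over the members and 0.43 over all genes. The LS arrays lay on slide 1 and the LSFF arrays on slide 2, so code and slide cannot be told apart within LIF serum.

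**Figure D4:**
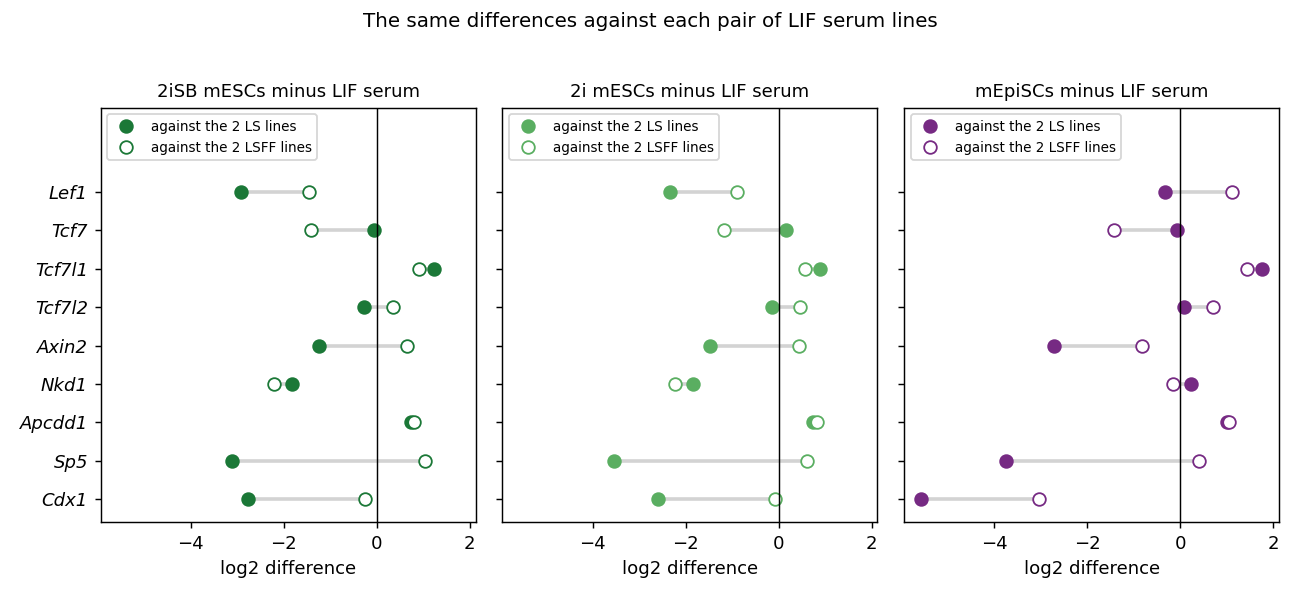
Log2 difference of 2iSB mESCs, 2i mESCs and mEpiSCs from LIF serum, taken against the 2 LS lines alone (filled) and the 2 LSFF lines alone (open). Tcf7l1, Nkd1 and Apcdd1 change by less than 0.5, while Sp5 and Axin2 in 2iSB and 2i mESCs lie below 0 against LS and above 0 against LSFF.

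All mEpiSC arrays lay on slide 2, and the other groups on both. With slide as a block, Lef1 stood at −2.53 (adjusted p = 3.6e-05) in 2iSB and −1.95 (adjusted p = 0.00028) in 2i mESCs against LIF serum, and Nkd1 at −2.03 and −2.05. Within slide 1 Lef1 was at −2.65 (adjusted p = 0.011) and −1.95 (adjusted p = 0.033), and within slide 2 at −2.25 and −2.05. Nkd1 was at −1.51 (adjusted p = 0.11) and −1.98 (adjusted p = 0.053) within slide 1, not called there, and at −3.16 and −1.80 within slide 2, where each inhibitor group has 1 array, assumed to vary like the others. Tcf7l1 in 2iSB mESCs was at 1.11 with the block, 1.06 (adjusted p = 0.085) within slide 1 and 1.44 within slide 2. Cdx1 in 2i mESCs was called with the block, at −1.58 (adjusted p = 0.025). Its 2iSB difference was −1.75 with the block, −2.79 within slide 1 and −0.18 within slide 2, and the 2i one −2.61 and −0.06. In mEpiSCs against LIF serum the block gave −3.83 for Cdx1, −1.35 for Axin2, 1.52 for Tcf7l1 and 1.09 for Apcdd1. It also called Lef1 higher (1.06, adjusted p = 0.011) and Tcf7 lower (−1.06, adjusted p = 0.0057). Slide 2 alone gave 1.11 and −1.42. For mEpiSCs against LIF serum it holds the same arrays as the comparison with the LSFF lines alone, so these differences repeat that one. In the LSFF fit Lef1 was not called (adjusted p = 0.11). Within slide 2 mEpiSCs were at −3.05 for Cdx1, −0.82 for Axin2 (adjusted p = 0.13), 1.44 for Tcf7l1 and 1.05 for Apcdd1. Against mEpiSCs, Axin2 was at 0.84 (adjusted p = 0.17) in 2iSB and 0.62 (adjusted p = 0.31) in 2i mESCs with the block, and at 1.45 and 1.06 within slide 2.

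The rest of the pathway was read from 113 further genes in 8 role groups, of which 98 were tested. In 2iSB mESCs against LIF serum 8 were called higher and 20 lower, where 6.81% of all genes were higher and 13.3% lower. In 2i mESCs 9 were higher and 23 lower (all genes 6.25% and 12.1%), and in mEpiSCs 36 were higher and 13 lower (all genes 18.0% and 15.6%). With arrays centred on their medians the mEpiSC counts were 44 and 5. The balance over all genes also turned with the filter: without one on dim probes 2860 were called higher and 4008 lower in mEpiSCs, against 2788 and 2428 with it. List counts against the LS lines alone were 2 higher and 18 lower in 2iSB mESCs, 3 and 20 in 2i mESCs and 26 and 12 in mEpiSCs, and against the LSFF lines alone 10 and 19, 12 and 22, and 35 and 12. With normexp they were 6 and 14, 5 and 15, and 32 and 13. The filter itself favours genes high in 1 group: 9 of the 98 passed through mEpiSCs alone (Wnt8a, Wnt10b, Rspo2, Rspo3, Lgr5, Dkk1, Dkk2, Frzb and Sostdc1), and 8 of these are among the 36 called higher. Their mEpiSC values are given as a description, without p. Among the 67 genes well above background on every array, 7 were higher and 8 lower in 2iSB mESCs, 5 and 11 in 2i mESCs, and 17 and 10 in mEpiSCs. The median difference of the list was −0.22 in 2iSB mESCs, −0.22 in 2i mESCs and 0.34 in mEpiSCs. Between 2iSB and 2i mESCs 0 of the 98 were called. The counts of the role groups below are small and are to be read against the same shares of all genes.

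**Figure D5:**
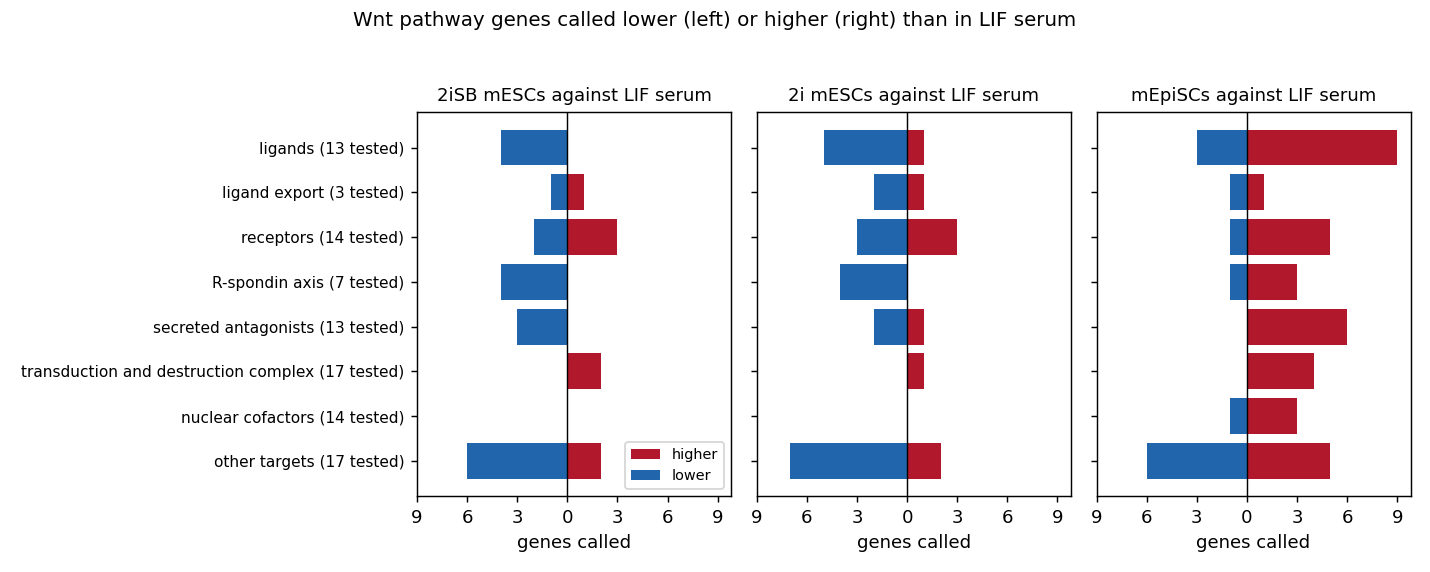
Number of Wnt pathway genes called higher (red, right) or lower (blue, left) than in LIF serum in 2iSB mESCs, 2i mESCs and mEpiSCs, by role group, with the number tested. In mEpiSCs 9 of 13 ligands and 6 of 13 genes in the secreted antagonist group are higher. Of these, 2 and 4 passed the filter through mEpiSCs alone. In 2iSB and 2i mESCs ligands and R-spondin axis genes are mostly called lower where called.

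Of 13 ligands tested, 0 were higher and 4 lower in 2iSB mESCs, 1 was higher and 5 lower in 2i mESCs, and 9 were higher and 3 lower in mEpiSCs. Wnt9a stood at −3.58 (SE 0.66, adjusted p = 0.00093) in 2iSB and −4.14 (adjusted p = 0.00036) in 2i mESCs. Wnt4 stood at −3.37 (adjusted p = 0.00095) in 2iSB mESCs, −2.91 (adjusted p = 0.0030) in 2i mESCs and 4.58 (SE 0.63, adjusted p = 2.5e-05) in mEpiSCs. It was well above background on 2 arrays of each inhibitor group. With normexp the values there were −1.56 in 2iSB and −1.49 in 2i mESCs. Wnt3, the ligand needed for the primitive streak, was well above background on no 2iSB array and at least 4.76-fold lower there (adjusted p = 0.0011). This bound sets the 2iSB arrays at the lowest signal well above background, or at their own where higher. Bounds of this kind, here and below, hold for the processed signals and not for every background correction. With normexp Wnt3 stood at −0.99 in 2iSB mESCs. Wnt8a, on no 2i array, was at least 2.17-fold lower there (adjusted p = 0.031, 2 of 4 LIF serum arrays well above background). Its value there was −0.87 with normexp. In mEpiSCs Wnt5a was at 3.09 (adjusted p = 0.0079) and Wnt8a at 2.89.

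Ligand export genes followed the ligands in part. Wls, the carrier that brings Wnts to the surface, stood at −2.73 (adjusted p = 0.00050) in 2iSB mESCs, −3.08 (adjusted p = 0.00023) in 2i mESCs and 2.45 (adjusted p = 0.00045) in mEpiSCs. Porcn, which attaches the lipid that Wnts need, was at −3.0 (adjusted p = 0.0031) in 2i mESCs and −1.68 (adjusted p = 0.040) in mEpiSCs. Notum, an enzyme that removes that lipid and a feedback target of the pathway, was at 2.96, 3.70, 3.45 and 3.95 in 2iSB mESCs, at 3.37, 4.15, 3.58 and 3.57 in 2i mESCs and at 2.94, 2.73, 1.98 and 1.61 in LIF serum. It was higher on every inhibitor array than on any LIF serum array, by 1.20 (SE 0.28, adjusted p = 0.0050) in 2iSB and 1.35 (SE 0.28, adjusted p = 0.0025) in 2i mESCs, opposite in direction to Lef1 and Nkd1. Against the LS lines alone the values were 0.68 and 0.83.

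Among 14 receptors, 3 were higher and 2 lower in 2iSB mESCs, 3 higher and 3 lower in 2i mESCs, and 5 higher and 1 lower in mEpiSCs. Fzd10 was higher by 1.56 (adjusted p = 0.0034) in 2iSB and 2.01 (adjusted p = 0.00064) in 2i mESCs, and Fzd8 by 1.50 (adjusted p = 0.00060) and 1.60 (adjusted p = 0.00043). Fzd2 stood at −1.94 (adjusted p = 0.00092) and −2.41 (adjusted p = 0.00021). In mEpiSCs Fzd1 was at 2.97 (adjusted p = 7.5e-06), Fzd6 at 2.89 (adjusted p = 1.4e-06) and Fzd9 at −2.48 (adjusted p = 1.3e-06).

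The R-spondin axis sets how long Frizzled receptors stay at the surface. Of its 7 tested genes 4 were lower and 0 higher in both inhibitor groups. Of these 4, 2 (Rspo2 and Rspo3) had passed the filter through mEpiSCs alone, and with normexp 2 genes were lower in each group. In mEpiSCs 3 were higher, 2 of which had passed the filter through mEpiSCs alone, and 1 lower. Rspo2 was well above background on 2 LIF serum arrays, both coded LS. Against the LSFF lines alone it was at −0.56 in 2iSB and −0.18 in 2i mESCs. Rnf43, the ligase that removes Frizzled and a feedback target of the pathway, stood at −4.32 (SE 0.93, adjusted p = 0.0027) in 2iSB and −5.10 (SE 0.93, adjusted p = 0.00093) in 2i mESCs. It was well above background on 2 of the 2iSB and 3 of the 2i arrays. Rspo1, a secreted enhancer of Wnt signals, was at −3.10 (adjusted p = 0.00062) and −2.42 (adjusted p = 0.0040), and at −1.67 (adjusted p = 0.018) in mEpiSCs. Rspo3, not well above background on any inhibitor array, was at least 4.68-fold lower in 2iSB (adjusted p = 0.00048) and 3.57-fold lower in 2i mESCs (adjusted p = 0.00075), with 3 of 4 LIF serum arrays above background, and at 2.29 in mEpiSCs. With normexp Rspo3 stood at −0.85 in 2iSB mESCs, −0.83 in 2i mESCs and 1.61 in mEpiSCs. Lgr5, an R-spondin receptor, was well above background on all 4 mEpiSC arrays and on no other, which puts it at least 9.07-fold higher there than in LIF serum. With normexp the Lgr5 difference was 2.15.

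The group of secreted antagonists has 13 tested genes, among them Kremen1 and Kremen2, which are membrane proteins and not secreted. Of the 13, 0 were higher and 3 lower in 2iSB mESCs, 1 higher and 2 lower in 2i mESCs, and 6 higher and 0 lower in mEpiSCs. Of the 6, 4 had passed the filter through mEpiSCs alone: Dkk1, Dkk2, Frzb and Sostdc1. Dkk2 was at 4.21 and Frzb at 2.70 in mEpiSCs, and Sostdc1 was at least 1.93-fold higher there. With normexp these were at 2.35, 1.5 and 0.82. In 2iSB mESCs Dkk1 was well above background on no array, which puts it at least 2.19-fold lower (adjusted p = 0.013), with 3 LIF serum arrays above background. With normexp Dkk1 was at −0.5 there. Sfrp4 stood at −2.08 (adjusted p = 0.014) there. Dkk2 was well above background on no inhibitor array and on 2 LIF serum arrays, both coded LS. It was called lower in 2iSB (adjusted p = 0.025) and 2i mESCs (adjusted p = 0.041). Against the LSFF lines alone its values were −0.49 and −0.32. Sfrp1 was higher by 1.83 (adjusted p = 0.0051) and Kremen1 stood at −1.02 (adjusted p = 0.00098) in 2i mESCs.

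Genes of transduction and the nucleus had the fewest calls for their number in the inhibitor groups. Of all genes 20.1% were called in 2iSB and 18.3% in 2i mESCs. Of 17 transduction and destruction complex genes, 2 were higher in 2iSB mESCs, 1 in 2i mESCs and 4 in mEpiSCs, and 0 were lower. Gsk3b, the kinase that 2i inhibits, was higher by 1.41 (SE 0.24, adjusted p = 0.00057) in 2iSB mESCs, 1.08 (SE 0.24, adjusted p = 0.0042) in 2i mESCs and 1.60 (SE 0.24, adjusted p = 7e-05) in mEpiSCs. Against the LS lines alone Gsk3b was at 1.05 in 2iSB and 0.72 in 2i mESCs, and against the LSFF lines alone at 1.77 and 1.44. With slide as a block the values were 1.24 and 0.91, so the 2i difference fell under 2-fold there and against LS. Csnk1d, a casein kinase, was at 1.03 (adjusted p = 0.0029) in 2iSB mESCs and 1.79 (adjusted p = 1.1e-05) in mEpiSCs, and Btrc, which targets beta-catenin for breakdown, at 2.53 (adjusted p = 3.1e-07) in mEpiSCs. In 2iSB mESCs Csnk1d was at 0.68 against the LS lines alone and 1.38 against the LSFF lines alone. Of 14 nuclear cofactors 0 were called in either inhibitor group, and in mEpiSCs 3 were higher and 1 lower. Those with the largest differences were Bcl9 at 1.41 (adjusted p = 2.6e-05), Ctbp1 at 1.15 (adjusted p = 1.5e-06) and Crebbp at −1.10 (adjusted p = 0.0015). In mEpiSCs 33.6% of all genes were called, a share that neither group exceeded.

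Of 17 other targets tested, 2 were higher and 6 lower in 2iSB mESCs, 2 higher and 7 lower in 2i mESCs, and 5 higher and 6 lower in mEpiSCs. Ccnd2, a D-type cyclin, stood at −5.60 (adjusted p = 5e-05) in 2iSB and −5.95 (adjusted p = 3.6e-05) in 2i mESCs. It was well above background on 2 of the 2iSB and 3 of the 2i arrays, and with normexp the values were −4.1 and −4.29. Id2, an inhibitor of basic helix-loop-helix factors, was at −4.73 (adjusted p = 4.3e-05) and −4.09 (adjusted p = 0.00016). T (brachyury), a primitive streak factor, was at −3.53 (adjusted p = 0.0018) and −3.06 (adjusted p = 0.0052), well above background on 1 array of each inhibitor group. With normexp the T values were −1.39 and −1.2. The 2 higher genes were Nanog, at 1.05 in 2iSB and 1.2 in 2i mESCs, and Tfcp2l1, at 1.25 and 1.13. Against the LS lines alone Nanog was at 0.75 and 0.9 and Tfcp2l1 at 0.89 and 0.77, under 2-fold. In mEpiSCs the naive factors Esrrb (−8.47, adjusted p = 1.1e-13) and Tfcp2l1 (−6.26, adjusted p = 4.9e-10), both repressed by Tcf7l1 in mouse embryonic stem cells, and Ascl2 (−2.64, adjusted p = 1.1e-05) had the largest differences.

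Members did not share 1 pattern over the 16 arrays. As a description of log2 levels, with group, slide and code in common, the highest correlations between members were 0.88 for Axin2 and Cdx1, 0.79 for Tcf7l1 and Apcdd1, and 0.74 for Lef1 and Nkd1, and the lowest was −0.79 for Tcf7l1 and Cdx1. Of all other tested genes, Nkd1 was most like Gramd4 (r = 0.980), Anxa2 and Fam131a (0.969 each), and Lef1 most like Apol7b (0.962), Insm1 (0.948) and Lrrc3 (0.930). Cdx1 was most like Olfr985 (0.963), Grhl1 (0.943) and Srbd1 (0.926), and Axin2 like Enox1 (0.890), Dapp1 (0.882) and the same Olfr985 (0.872). Tcf7l1 was most like Tgfbr1 (0.951), Rapgef2 and Zfp592 (0.945 each), and Apcdd1 like Smap2 (0.901), Pdzrn4 (0.898) and Meis2 (0.889). Tcf7 was most like Rab15 (0.916), Hspb2 (0.915) and Pnpla7 (0.910), Tcf7l2 like Ednrb (0.936), Cd22 (0.920) and Lgi4 (0.911), and Sp5 like Ctbp2 (0.863), Ina (0.856) and Wdr46 (0.830), the weakest likeness of the 9.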

How the data were processed

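RNA of 16 lines, 4 in each of 4 culture groups, was hybridised to 16 arrays. Per the file headers, the scanner files deposited by the authors hold intensity values from Agilent Feature Extraction 10.7.1.1, background-subtracted and not normalized between arrays. The authors also deposited log2 values for these arrays, and the submitters' processing notes name Agilent Feature Extraction and limma. How they were normalized is not stated by the labels or headers. Groups came from the labels. Control spots and outlier spots (100 to 321 per array) were left out, spots of a probe were averaged, and log2 processed signals were set relative to each array's 75th percentile. Probes were named through their RefSeq accession (27656 of 55681), none of them to several genes. Testing required every array of some group to have the probe well above background. The planned normexp correction on mean signals was not run. Normexp on median signals, chosen after seeing the data, was tried in its place. Group means were fitted over all 16 arrays with limma 3.58.1 in R 4.3.3 (lmFit, eBayes), with Benjamini-Hochberg adjustment over 15517 genes in each comparison. Calls needed an adjusted p under 0.05 and at least 2-fold. The fit was tested on simulated data. The number of arrays limits the precision, and no probe used was saturated.

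Members and lists were chosen with earlier results of these data known. All members were named, as were at most 3 called genes of largest difference for each role group and comparison with LIF serum, and the 3 tested genes most like each member, predicted, clone and Riken names left out. The other targets called higher in the inhibitor groups were named as well. Other scalings, filters, slide, passage, line subsets and single arrays left out were tried as alternatives.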

Additional observations from a re-analysis of the deposited data

Results flagged for a closer look

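In groups of 4, Dixon's test at the 95% level was applied to 36 sets of arrays, 9 genes in 4 groups, and chance flags about 1 in 20. It marked 2 arrays, near that rate. Tcf7l2 in 2iSB mESCs replicate 3 was at −2.15, with the other 2iSB arrays between −1.20 and −1.02. Nkd1 in 2i mESCs replicate 2 was at −3.56, with the other 2i arrays between −2.36 and −2.17. Without 2i replicate 2 the Nkd1 difference from LIF serum was −1.71 (adjusted p = 0.0057 in the limma fit).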

How the results depend on the processing

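Of 54 member differences 18 were called, and 9 of these kept the call under every alternative run: Lef1 in 2iSB mESCs against LIF serum, Cdx1 and Tcf7l1 in mEpiSCs against LIF serum, and Cdx1, Lef1 and Nkd1 in 2iSB and in 2i mESCs against mEpiSCs. Of the 36 not called, 24 turned sign under at least 1 alternative. Members called in 2i mESCs against LIF serum numbered 2, but 1 with only the arrays compared in the fit and 5 against the LS lines alone, and 1 to 3 with an array left out. In 2iSB mESCs the 4 became 1 (Lef1) with passage as a covariate, where Cdx1 was at −2.09 (adjusted p = 0.059), and 2 to 4 with an array left out. They became 6 against the LS lines alone and 6 within slide 2, and the mEpiSC count 6 with slide as a block. In mEpiSCs the 4 became 2 with normexp, a setting chosen after seeing the data, where Axin2 (−0.85) and Apcdd1 (0.82) fell under 2-fold, and 3 to 5 with an array left out. Cdx1 in 2iSB mESCs was also not called with no filter on dim probes (adjusted p = 0.063) or only the arrays compared (adjusted p = 0.13). Against mEpiSCs, Axin2 lost its call with passage (0.89 in 2iSB, 0.96 in 2i mESCs), normexp (0.63 and 0.47) and the authors' deposited values (0.92 and 0.69), and an array left out gave 3 to 4 for each inhibitor group. Slide 2 has 1 2iSB and 1 2i array, so values there rest on a lone array assumed to vary like the other groups and do not measure the spread of either group. By that fit 3 members were called between 2iSB and 2i mESCs. There Apcdd1 was at 1.42 in 2iSB against 2i mESCs, Sp5 at 2.37 in 2iSB mESCs against LIF serum and at −1.99 in 2i mESCs against mEpiSCs, each opposite in sign to the value over both slides. The cause was not tested. Over all genes, requiring signal above background on all arrays, which tests fewer genes, gave 1827 calls in place of 3115 in 2iSB mESCs, 1682 in place of 2841 in 2i mESCs and 3337 in place of 5216 in mEpiSCs against LIF serum, and 3463 in place of 5639 in 2iSB and 3619 in place of 5806 in 2i mESCs against mEpiSCs. Within slide 1 the LIF serum counts were 1761 in 2iSB and 1687 in 2i mESCs. In 2iSB mESCs they were 2061 with normexp, 1902 with passage and 4969 within slide 2. The 13 calls between 2iSB and 2i mESCs ranged from 2 within slide 1 to 42 with passage, and the fit of 1 array against 1 within slide 2 gave 2236.

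Replicate numbers did not pair the samples, since correlations of same-numbered arrays ran from −0.59 to 0.40. With the replicate block, members called were 4 in 2iSB mESCs, 2 in 2i mESCs and 4 in mEpiSCs against LIF serum, 0 in 2iSB against 2i mESCs, and 4 each in 2iSB and 2i mESCs against mEpiSCs. The number of arrays, 4 in each group, limits what could be detected, as does the spread between the LIF serum lines for Axin2, Tcf7, Sp5 and Cdx1.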
